A study of Mus musculus with 10 samples.

Results

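H19, Meg3, Zdbf2 and Rasgrf1 are 4 imprinted mouse loci taken here as paternally methylated, that is with sequence that sperm carry methylated. They were studied here in spermatozoal DNA, to ask whether decitabine given to males lowered methylation where sperm normally carry it and whether any such change was found in the F3-generation. The loci were taken as windows in mm10, from 20 kb upstream to 1 kb downstream of the gene start by gene strand, and from 35 kb upstream for Rasgrf1. A CpG of these windows was a member when at least 1 animal had 10 or more reads on it with both strands summed. This gave 204 CpGs of 1342754 in the whole series and of 1558 that the reference sequence holds in the windows. H19 held 13 members of 249 CpGs in the reference, Meg3 28 of 360, Zdbf2 115 of 442 and Rasgrf1 48 of 507. All 10 animals covered 136 members, 7 of H19, 13 of Meg3, 86 of Zdbf2 and 30 of Rasgrf1.

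Reduced representation bisulfite sequencing (RRBS), which reads bisulfite-converted fragments around MspI sites, was done on sperm from minced epididymides of 10 male C57Bl/6 mice. In the P-generation, C8 and C14 were injected with the vehicle (7.5% DMSO in PBS) and D10, D11 and D13 with 0.1 µg/g of decitabine in that vehicle, both from the age of 7 weeks over 7 weeks with 3 injections per week. The F3-generation was untreated and held F3C9 (line of C8) and F3C30 (line of C14) as vehicle line, and F3D1 and F3D31 (both of D10) and F3D7 (of D11) as decitabine line. The F3 animals of one founder are related, and no descendant of D13 was analysed. The study had measured sperm purity by flow cytometry only on randomly chosen P samples, and found it high and almost equal between groups. Summed coverage ran from 48903817 in D13 to 115158278 in F3D1, and the median at cytosines with 10 or more reads from 28 to 63 reads.

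In an imprinted domain 1 parental copy is marked by methylation and the marked and unmarked copies are used differently. The H19 control region binds the insulator protein CTCF when it is unmethylated and thereby sets the use of Igf2, a fetal growth factor, and of the noncoding RNA H19. The intergenic control region upstream of the noncoding RNA Meg3 acts on Dlk1 and Rtl1, and that of Rasgrf1 on a guanine nucleotide exchange factor. Zdbf2 is an imprinted zinc finger gene. In mature sperm the control regions of H19, Meg3 and Rasgrf1 are methylated, whereas control regions that receive their mark in the oocyte are not. Decitabine is a cytidine analogue that is built into DNA during replication and traps DNA methyltransferases.

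The members fell into 17 blocks, each a run of covered CpGs with gaps of at most 500 bp. The sequences of the 6 blocks on which most of the following comparisons turn are shown first, since they show exactly which cytosines were read. The limits of the control regions were not marked out here, so a block need not lie within one. All are given on the plus strand of mm10 in the 5′ to 3′ direction, with the member CpGs in capitals. The first lies 2999 to 3243 bp upstream of H19 (ENSMUSG00000000031.16, minus strand) at chr7:142581142-142581387, the second 22 to 99 bp upstream of the H19 start at chr7:142578165-142578243. Those of Meg3 (ENSMUSG00000021268.17, plus strand) lie at chr12:109525712-109525792 and chr12:109526678-109526737, that of Zdbf2 (ENSMUSG00000027520.15, plus strand) at chr1:63263509-63263639 and that of Rasgrf1 (ENSMUSG00000032356.12, plus strand) at chr9:89885782-89886081. All 6 were annotated as intergenic.
H19 3.2 kb upstream: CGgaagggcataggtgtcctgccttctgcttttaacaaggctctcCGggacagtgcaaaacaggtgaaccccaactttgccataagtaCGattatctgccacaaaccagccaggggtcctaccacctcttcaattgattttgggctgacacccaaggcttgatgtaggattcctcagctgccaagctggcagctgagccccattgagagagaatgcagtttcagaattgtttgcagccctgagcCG
H19 start: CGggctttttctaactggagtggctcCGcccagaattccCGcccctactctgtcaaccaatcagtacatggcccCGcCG
Meg3 15.3 kb upstream: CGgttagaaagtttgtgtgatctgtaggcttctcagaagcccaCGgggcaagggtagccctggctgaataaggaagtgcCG
Meg3 14.3 kb upstream: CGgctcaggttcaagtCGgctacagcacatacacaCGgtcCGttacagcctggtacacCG
Zdbf2 9.8 kb upstream: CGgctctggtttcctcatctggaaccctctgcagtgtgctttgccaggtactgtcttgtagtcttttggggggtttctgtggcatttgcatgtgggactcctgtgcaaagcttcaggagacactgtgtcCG
Rasgrf1 24.1 kb upstream: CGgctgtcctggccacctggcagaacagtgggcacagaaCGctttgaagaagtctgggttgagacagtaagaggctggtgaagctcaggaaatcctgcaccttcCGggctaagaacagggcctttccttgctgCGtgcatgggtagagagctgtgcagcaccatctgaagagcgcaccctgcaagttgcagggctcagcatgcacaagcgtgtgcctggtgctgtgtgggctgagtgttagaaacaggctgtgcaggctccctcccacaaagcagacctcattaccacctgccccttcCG

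The windows were searched on both strands for TGCCGC, the motif bound by ZFP57, a zinc finger protein that protects methylated imprints, and for CGNGGNGGC, used here for the core of the CTCF motif. The ZFP57 letters were found 7 times in the H19 window, 11 times at Meg3, 3 times at Zdbf2 and 12 times at Rasgrf1. Over 35311 gene windows of 21 kb the median was 2, and 78.63% held at least 1. At least as many as at Meg3 were found in 0.42% of these windows, at least as many as at H19 in 4.39% and as at Zdbf2 in 37.41%. The Rasgrf1 window is longer than the 21 kb windows, of which 0.25% held 12 or more, so this share is not a like comparison. The CTCF letters were found 4 times at H19, 0 times at Meg3, 3 times at Zdbf2 and 2 times at Rasgrf1, with a median of 1, and 63.27% of the windows held at least 1. At H19, 2 of the 7 ZFP57 matches overlapped a CTCF match, and at the other loci 0 did. The block 3.2 kb upstream of H19 had 5 ZFP57 matches and 3 CTCF matches within 1 kb, the nearest at 403 and 367 bp. The nearest ZFP57 match was 16 bp from the Meg3 block 14.3 kb upstream and 183 bp from the Rasgrf1 block 24.1 kb upstream. None of the 5 upstream blocks printed above held either motif itself, so their covered CpGs are neighbours of these letters and not part of them.

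Methylation along the windows was split by distance from the gene. The windows held 21 to 31 MspI sites each. Of the 204 members, 29 had a mean level over the covering animals of 50% or more and 164 had a mean under 20%, of which 35 were at 0. The 29 were 8 of H19, 10 of Meg3, 2 of Zdbf2 and 9 of Rasgrf1, and all lay upstream of the gene start. The name of paternally methylated loci can therefore describe only these CpGs, while most members, 111 of Zdbf2 and 39 of Rasgrf1 among them, had a mean under 20%. A level of 50% or more was not particular to these loci. Of the CpGs covered in all P animals, 15 of 138 members and 272551 of 934227 over the genome had it. A level read from many sperm cells cannot tell whether some cells are methylated fully or all cells in part. One of the 35 CpGs at 0 was that 863 bp upstream of Rasgrf1 with 0 of 1175 reads over the 10 animals, which allows a level of up to 0.255% by counting error alone.

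**Figure D1:**
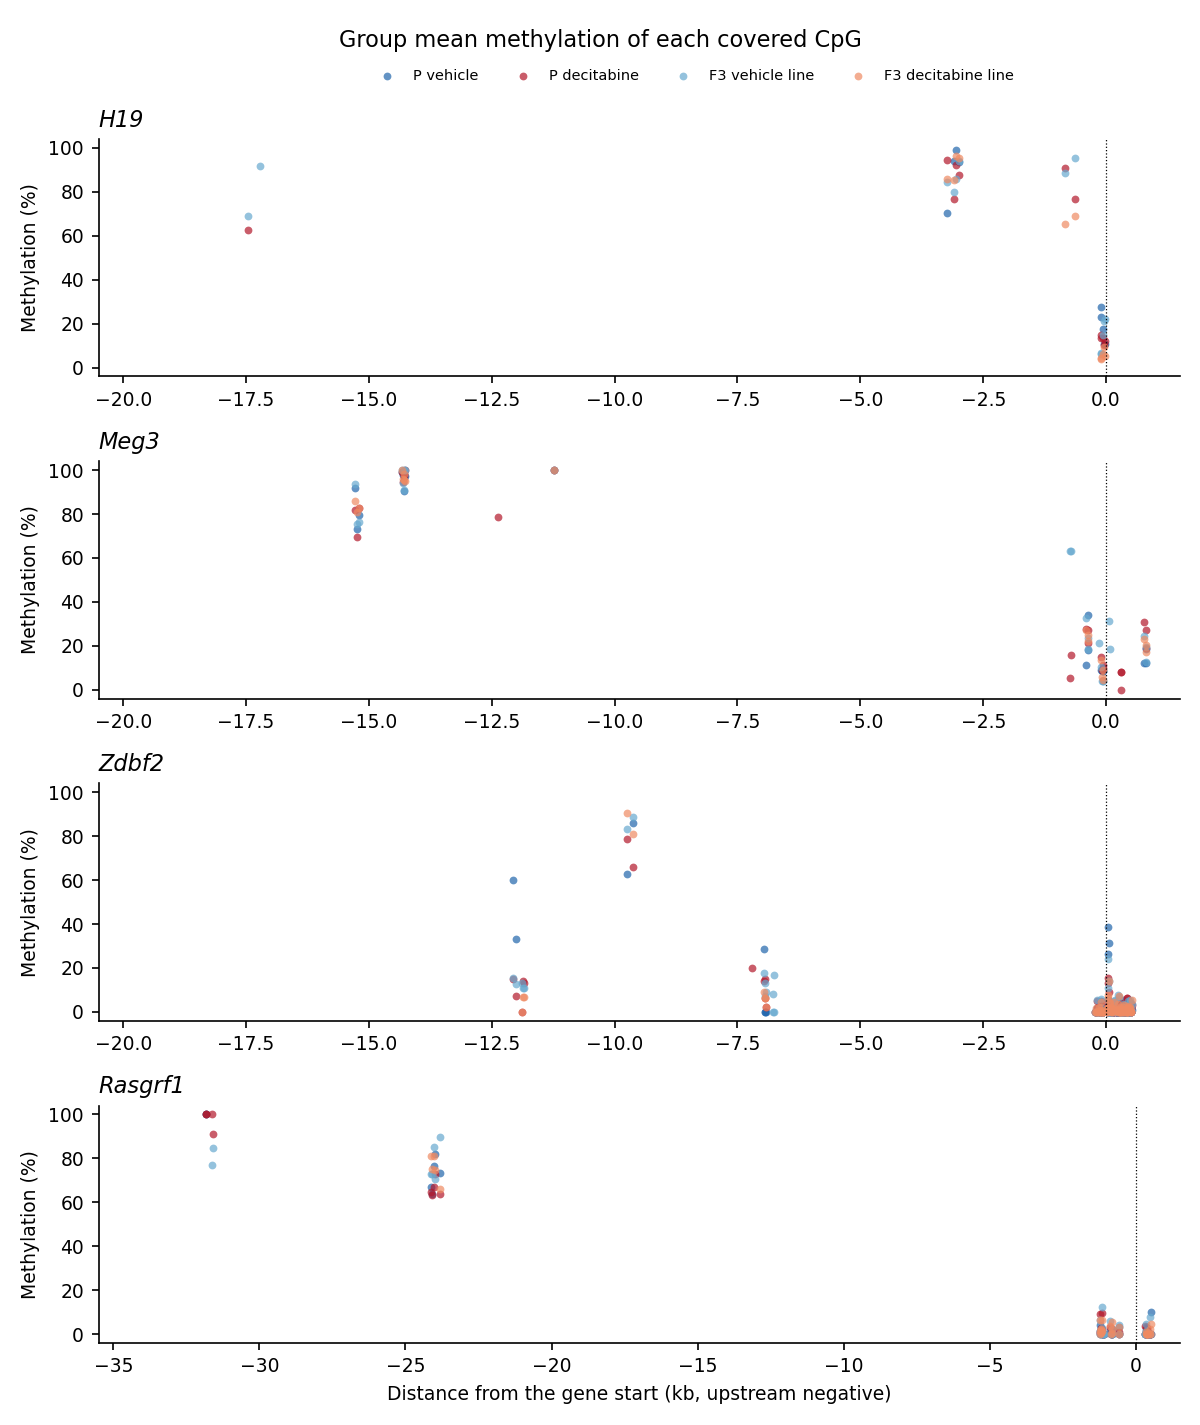
Group mean methylation (%, vertical axis) of each member CpG against its distance from the gene start (kb, horizontal axis) in 4 panels, with 1 point per CpG and group (P vehicle, P decitabine, F3 vehicle line, F3 decitabine line). Upstream CpGs of H19, Meg3 and Rasgrf1 and 2 CpGs of Zdbf2 lie high, while CpGs at the gene starts lie mostly under 20%.

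The H19 members 3.2 kb upstream had CpG means from 82.74% to 93.7%. Those within 99 bp of the H19 start had CpG means from 11.13% to 12.7%. Between them, 625 to 832 bp upstream, 2 CpGs had means of 81.85% and 84.83%, but only 6 and 5 animals covered them. A further 2 CpGs 17215 and 17463 bp upstream, in an intron of Gm33148, were covered in 1 and 2 animals with means of 91.67% and 65.87%.

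Among the CpGs covered in all 10 animals, Meg3 held more with a high level than the other 3 windows. Its block 14.3 kb upstream had CpG means from 95.62% to 99.52%, its block 15.3 kb upstream from 74.92% to 87.47%, and the CpG at 11243 bp upstream was at 100% in the 6 animals that covered it. The 18 members from 727 bp upstream to 811 bp downstream of the Meg3 start, in intergenic sequence and in the exon and intron of Meg3, had means from 0% to 39.47%. At Zdbf2, only the 2 CpGs 9627 and 9756 bp upstream were high, with means of 78.97% and 79.9%. The other upstream members of Zdbf2, 11838 to 12060 bp and 6755 to 7212 bp away, had means of 4.44% to 24.31% and 0% to 20%, and none was covered in all 10 animals. Rasgrf1 had means of 68.78% to 76.79% at 24.1 kb upstream and of 87.76% to 100% at 31.8 kb upstream, the latter in 2 animals per CpG. The 39 members of Rasgrf1 near the gene start, in intergenic, coding exon and intron sequence, had means of at most 7.31%.

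The H19 block 3.2 kb upstream was the only upstream block whose P groups did not overlap with decitabine lower. Over its 2 CpGs covered in all animals, the level was 92.9% in C14 and 100% in C8, against 90.4% in D10, 88.4% in D11 and 91.3% in D13. The mean was 96.47% ± 4.99 (SD, n = 2) in vehicle-control and 90.03% ± 1.502 (SD, n = 3) in decitabine treated animals, a difference of -6.44 percentage points ± 3.63 (SE). In the F3-generation the order was turned, with 95.5% in F3C30 and 84.6% in F3C9 against 95.0% in F3D1, 96.9% in F3D31 and 95.7% in F3D7. The F3 difference was 5.81 ± 5.44 percentage points, and here the groups overlapped. Neither difference passed a limma fit over all blocks, with an unadjusted p of 0.085 and an adjusted p of 0.875 in P, and an adjusted p of 0.936 in F3. The P and F3 differences differed by -12.2 percentage points (exact permutation test over 100 arrangements, two-sided, p = 0.02, 0.2 after adjustment over 10 blocks). Without C8 the P difference was -2.91 percentage points, and without C14 -9.97. Without D13 more CpGs of the block could be used and the difference was 3.35, while without F3C9 the F3 difference was 0.41.

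The H19 CpG at position -3044 (bp from the gene start, upstream negative) followed the same order. It had 98.6% in C14 and 100% in C8 against 88.7% in D10, 95.2% in D11 and 93.1% in D13, on 58 to 74 reads each. Its pooled difference of -7.1 percentage points had an unadjusted p of 0.000833 and a q-value of 0.0218 in the logistic model, which leaves out the spread between animals, and 1 with that spread included. In the F3-generation the same CpG had 78.8% in F3C9, where the 95% Wilson interval ran from 69.0% to 86.2%, and 93.2% to 97.7% in the other animals. The H19 CpG 2999 bp upstream is the only one of 4 CpGs in the reference sequence of the amplicon that the study pyrosequenced (chr7:142581001-142581167) that RRBS covered with 10 or more reads. Its levels were 87.2% in C14, 100% in C8, 92.2% in D10, 81.6% in D11 and 89.5% in D13, with overlapping groups. The pooled difference was -5.3 percentage points, with a q-value of 0.589. In F3 the level ran from 90.5% in F3C9 to 97.8% in F3C30. By pyrosequencing of more animals, the study reported lower H19 methylation in spermatozoa of decitabine treated P animals.

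At the H19 start the block mean was highest in C8 and F3C9. The mean of the 5 CpGs was 10.1% in C14, 25.8% in C8, 12.2% in D10, 12.7% in D11 and 13.8% in D13. In the F3-generation it was 9.27% in F3C30, 19.2% in F3C9, 5.24% in F3D1, 6.43% in F3D31 and 6.00% in F3D7. Decitabine animals lay between the vehicle animals in P, and every animal of the decitabine line lay below both of the vehicle line in F3. The difference was -5.05 ± 7.90 percentage points (SE) in P and -8.36 ± 4.99 in F3. The F3 value had an unadjusted p of 0.0189 in limma and an adjusted p of 0.936, and without F3C9 the difference was -3.38. In P the difference was 2.84 without C8 and -12.94 without C14. These 5 CpGs lie within 79 bp and are not 5 separate measurements, since the CpGs 22 and 48 bp upstream had nearly equal read numbers in every animal, as had those 96 and 99 bp upstream. The height of F3C9 came from the CpGs 22, 48 and 61 bp upstream, the first of which had 12 of 34 reads methylated. The CpG 96 bp upstream, with 20.9% in C14, 34.1% in C8, 11.3% in D10, 18.3% in D11 and 14.7% in D13, had a P difference of -12.4 percentage points and a q-value of 0.171. In F3 that CpG had 0 of 40 reads methylated in F3C9 and 0 of 54 in F3D7, which allows 7.5% and 5.56%, and 13.8% in F3C30, 5.2% in F3D1 and 8.6% in F3D31, so here F3C9 was not high. For the CpG 99 bp upstream, the lowest of H19, the P difference was -9.4 (q-value 0.325), and F3C9 had 5% against 7.9% in F3C30.

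**Figure D2:**
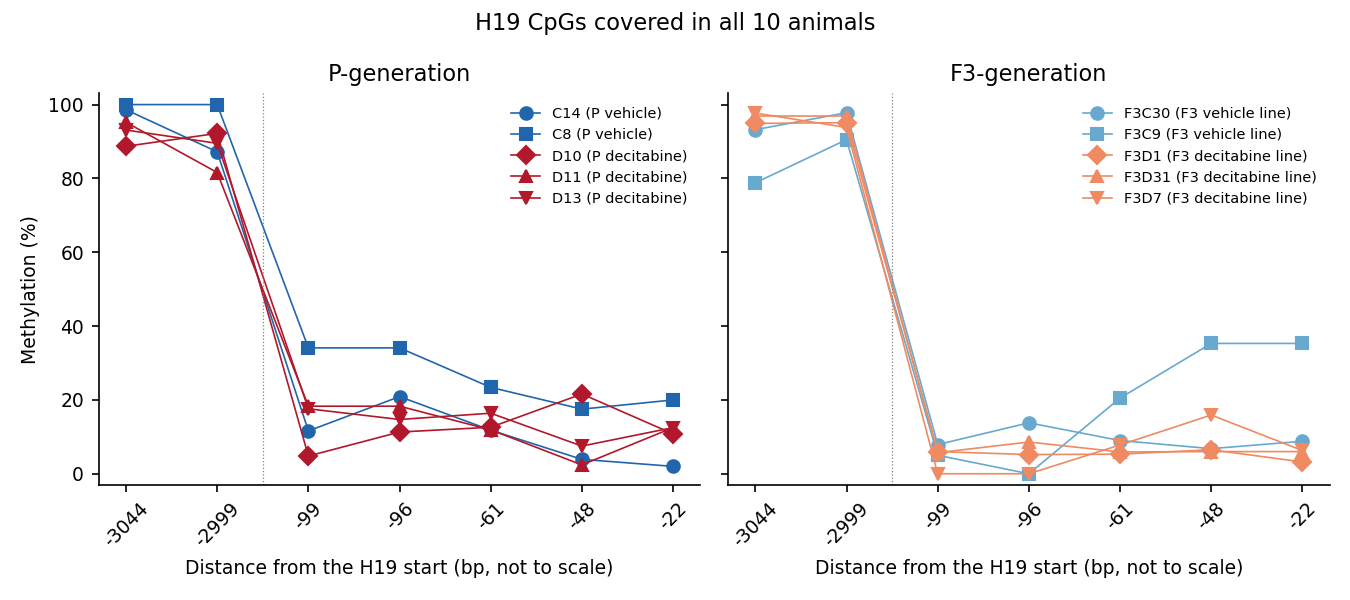
Methylation (%, vertical axis) of the 7 H19 CpGs covered in all 10 animals, ordered by distance from the gene start (bp, evenly spaced and not to scale), with 1 line per animal and the P-generation (left) and F3-generation (right) apart. The 2 upstream CpGs lie between 78.8% and 100% and the 5 CpGs at the gene start between 0% and 35.3%, where the highest value of each generation is that of C8 or F3C9.

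The Meg3 block 14.3 kb upstream was nearly fully methylated in every animal. It had 96.1% in C14, 96.5% in C8, 98.0% in D10, 99.05% in D11 and 96.7% in D13, and from 94.6% in F3C9 to 99.4% in F3C30 in the F3-generation. Decitabine animals of P were all slightly higher, by 1.59 ± 0.716 percentage points (SE), with an adjusted p of 0.906. The F3 difference was -0.03 ± 2.42. No animal of any group was below 94.6%.

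One kb further from the gene, the Meg3 block 15.3 kb upstream varied more. Its level was 86.1% in C14, 77.1% in C8, 65.3% in D10, 81.4% in D11 and 87.2% in D13. In F3 it ran from 72.2% in F3C9 to 91.6% in F3C30. Both groups overlapped in both generations, with differences of -3.64 ± 7.95 and 1.34 ± 10.4 percentage points (SE).

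Around the Meg3 start, decitabine treated animals had higher levels than both vehicle-control animals. Over 5 CpGs the mean was 16.0% in C14 and 19.2% in C8, against 30.2% in D10, 29.2% in D11 and 21.3% in D13. The difference of 9.35 ± 3.26 percentage points (SE) had an unadjusted p of 0.118 and an adjusted p of 0.875. In F3 the groups overlapped and the difference over 10 CpGs was 1.47 ± 5.88. The test of the P against the F3 difference did not pass (9.45 percentage points over the 5 CpGs, exact permutation test, two-sided, p = 0.27). Of single CpGs, that at 776 had 10.6% in C14, 13.8% in C8, 53.1% in D10, 12.5% in D11 and 27.5% in D13. Its pooled difference was 18.3 percentage points with a q-value of 0.0237, and the difference passed the threshold when D11 was left out (38.9% against 12.5%). In the F3-generation it ran from 5.4% in F3C30 to 44.0% in F3C9. The CpGs at -410 (16.3 percentage points, q-value 0.0312) and at 805 (13.3, q-value 0.0363) were the next largest. The lowest Meg3 CpG, 296 bp downstream, was read only in D11 with 0 of 25 reads, which allows up to 12%.

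The Zdbf2 block 9.8 kb upstream was uneven in P and even in F3. Its level was 84.7% in C14 and 64.0% in C8, and 68.6% in D10, 64.9% in D11 and 83.3% in D13, on 11 to 43 reads per CpG. In F3 all 5 animals lay close together, at 85.4% in F3C30, 86.2% in F3C9, 85.0% in F3D1, 85.0% in F3D31 and 87.2% in F3D7. Vehicle and decitabine overlapped in both generations, with differences of -2.06 ± 11.8 and -0.09 ± 0.844 percentage points (SE). The P difference rested on which vehicle animal was used, since it was 8.27 without C14 and -12.4 without C8. The F3 animals were higher than the P animals by 12.5 percentage points (exact permutation of generation within agent, two-sided, p = 0.0167, 0.167 after adjustment over 10 blocks), and the lowest F3 animal lay above all 5 P animals. Paired with their founders, the F3 animals were higher in 4 of 4 families, by 0.77 in that of C14, 22.26 in that of C8, 16.45 in that of D10 and 22.33 percentage points in that of D11 (exact sign-flip permutation, p = 0.125, the smallest that 4 families allow). The CpG 9627 bp upstream had 90.2% in C14 and 81.8% in C8 against 78.8% in D10, 52.0% in D11 and 66.7% in D13. Its pooled difference of -21.4 percentage points had a q-value of 0.0501, and the value of C8 rested on 11 reads with a Wilson interval from 52.3% to 94.9%.

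The Rasgrf1 block 24.1 kb upstream held the widest range of any upstream block covered in all animals. Over 3 CpGs its level was 75.4% in C14 and 62.8% in C8, and 55.4% in D10, 53.3% in D11 and 86.4% in D13. D10 and D11 were the lowest of the 10 animals and D13 was the highest, so the decitabine group enclosed the vehicle group. The F3 animals had 75.6% to 80.2% over the same CpGs. The P difference was -4.11 ± 12.4 percentage points (SE), and without D13 it was -14.8 with an adjusted p of 0.932. Over 4 CpGs in F3 the difference was 2.70 ± 5.57. The F3 animals were higher than the P animals by 10.9 percentage points (exact permutation, two-sided, p = 0.167, adjusted 0.833), and in 4 of 4 founder families, by 0.16 in that of C14 and 15.21 to 26.65 in the others (exact sign-flip permutation, p = 0.125). At the CpG at -24022 the levels were 78.4% in C14, 74.6% in C8, 58.2% in D10, 61.8% in D11 and 81.1% in D13, with a difference of -9.8 and a q-value of 0.353.

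**Figure D3:**
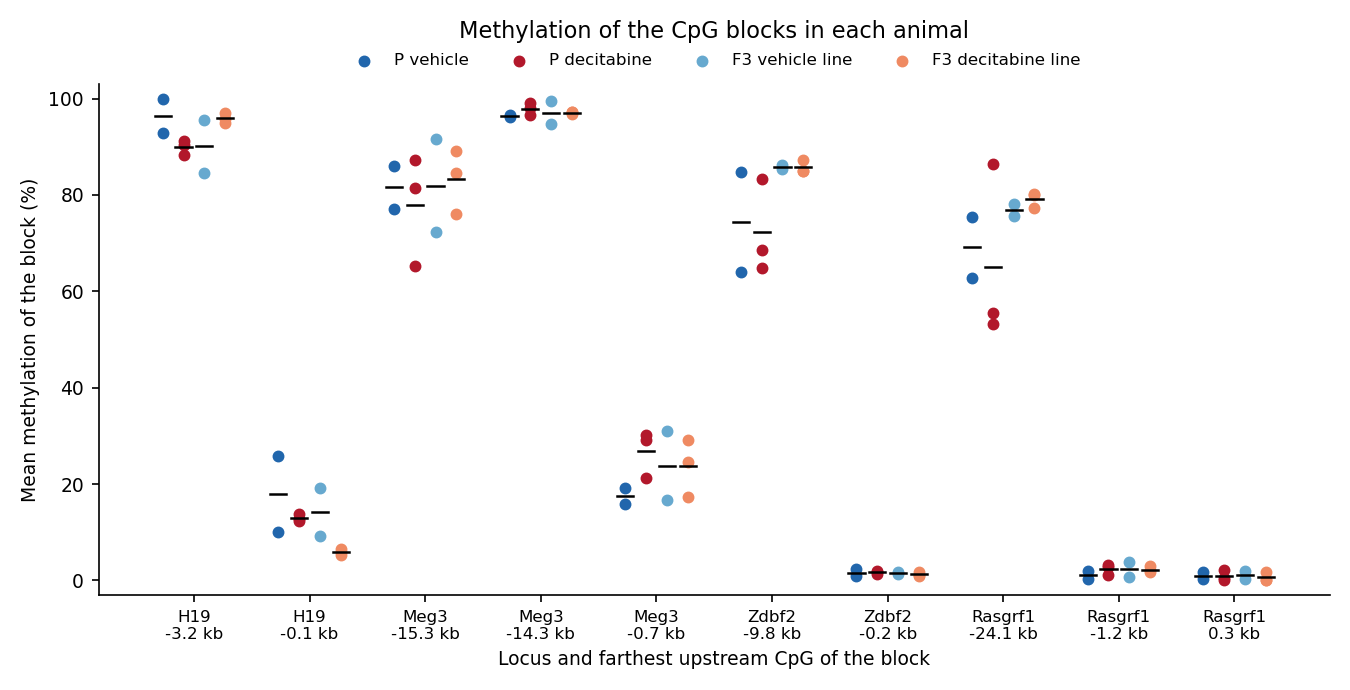
Mean methylation (%, vertical axis) of the 10 blocks with at least 2 CpGs covered in all 10 animals, with 1 point per animal, colours for the 4 groups and a bar at each group mean. The Zdbf2 block 9.8 kb upstream and the Rasgrf1 block 24.1 kb upstream spread over more than 20 percentage points in P and lie close together in F3.

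The gene starts of Zdbf2 and Rasgrf1 stayed low in every animal. The 84 Zdbf2 CpGs from 233 bp upstream to 520 bp downstream that all P animals covered, in intergenic, UTR and intron sequence, had block means of 0.95% in C14, 2.34% in C8, 1.41% in D10, 1.69% in D11 and 1.91% in D13. In F3 the block ran from 0.91% in F3D1 to 1.66% in F3C9. Rasgrf1 had means of 0.55% to 2.82% in P and 0.82% to 3.83% in F3 from 563 to 1228 bp upstream, and of 0% to 2.14% in P and 0% to 2.01% in F3 from 312 to 508 bp downstream. Within the Zdbf2 start a few CpGs departed from this in C8. The CpG 47 bp downstream had 71.4% in C8 (20 of 28 reads, Wilson interval 52.9% to 84.7%), against 6.2% in C14, 3.6% in D10, 11.1% in D11 and 31% in D13. In F3 it had 34.1% in F3C9 and at most 13.9% in the other animals. Its pooled P difference was -21.6 percentage points (q-value 0.0421), and the CpG 52 bp downstream had 50% in C8, at most 13.9% in the other P animals, and a difference of -20.3 (q-value 0.0312). In F3 the latter had 25% in F3C9 and 25.6% in F3D7 against 2.8% to 9.5% in the other animals, a difference of -0.7. At Rasgrf1 the CpG 1165 bp upstream had 0% in C14 and C8, 1.6% in D10, 20.6% in D11 and 7.1% in D13, and 19.7% in F3C9 against 5.1% to 6.9% in the other F3 animals. Its P difference was 10.2 percentage points (q-value 0.00173, and 1 with the spread between animals included). The CpG 508 bp downstream had 20% in C8 and 0% in the other P animals, a difference of -9.9 (q-value 0.0076).

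**Figure D4:**
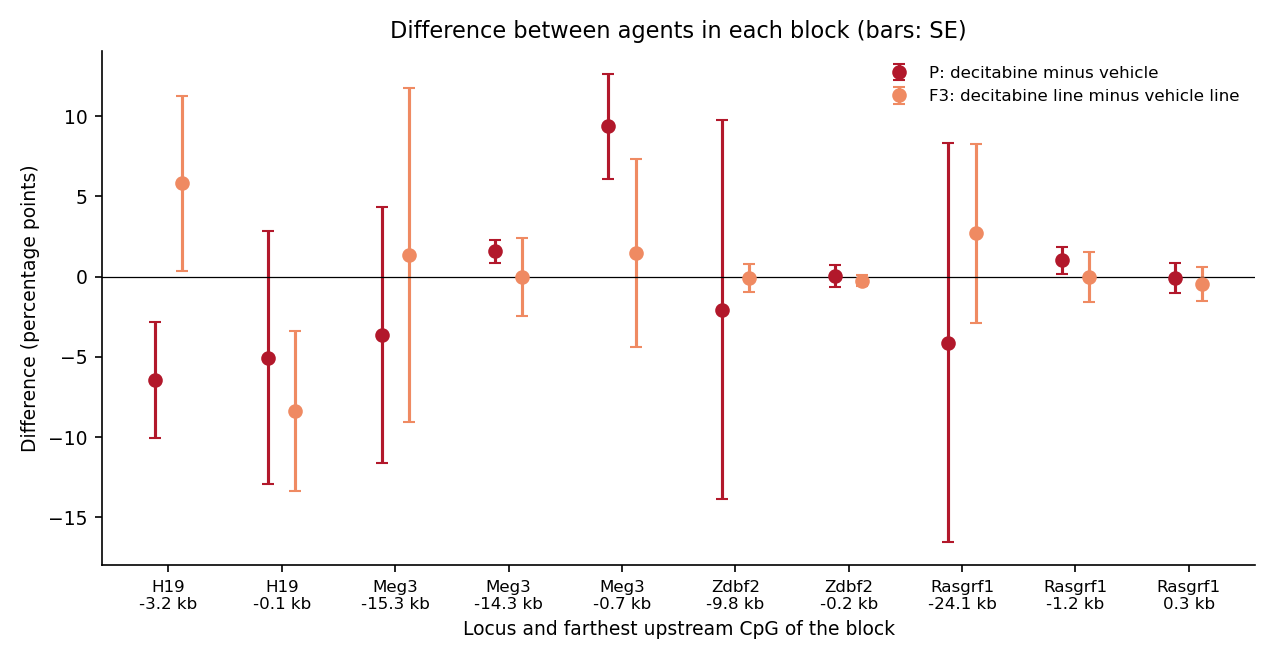
Difference of decitabine minus vehicle (percentage points, vertical axis) for the 10 blocks in P and in F3, with bars of 1 SE over 2 against 3 animals. The largest values are 9.35 at the Meg3 start in P, -8.36 at the H19 start in F3 and -6.44 at H19 3.2 kb upstream in P, and the bars of the Zdbf2 and Rasgrf1 upstream blocks in P exceed 10 percentage points.

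No member CpG was called in either generation. A call needed pooled levels 25 or more percentage points apart and a q-value under 0.01 in a logistic model over all CpGs of the genome. In P, 138 members were tested and 0 called, where 0.705% of 934227 CpGs were called, and in F3, 155 were tested and 0 called, where 0.237% of 1054272 were. With backgrounds this low, a count of 0 among so few CpGs does not set the loci apart. At an unadjusted p under 0.05, 19 members passed in P (11 higher and 8 lower with decitabine) and 31 in F3 (13 higher and 18 lower), against backgrounds of 17.2% and 16.1%. With an overdispersion term per CpG, 0 members were called, as were 0% of all CpGs in P and 0% in F3, and 2 in P (both lower) and 0 in F3 had an unadjusted p under 0.05, against 1.12% and 1.21%. limma per CpG called 0 members and 0% of CpGs, with 4 members in P and 7 in F3 under an unadjusted p of 0.05 against 5.59% and 5.09%.

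A few settings brought members past a threshold. With a difference of 10 percentage points, 1 member was called in P, the Rasgrf1 CpG 1165 bp upstream, against 2.13% of CpGs, and 0 in F3 against 0.953%. Without C14, so that C8 alone stood for the vehicle, 3 members were called, all lower with decitabine and all at the Zdbf2 start, against 4.43% of CpGs. They were the CpGs 42 bp (12.9% against 46.4%), 47 bp (15.1% against 71.4%) and 52 bp downstream (9.7% against 50%). Without F3C30, 3 members were called lower in the decitabine line, against 1.33% of CpGs, the CpGs 22 bp (4.9% against 35.3%) and 48 bp (9.2% against 35.3%) upstream of H19 and that 47 bp downstream of Zdbf2 (8.0% against 34.1%). These 6 calls were made against C8 or F3C9 alone as vehicle. Without D13, 1 of 139 members was called, the Zdbf2 CpG 47 bp downstream (7.8% against 36.7%), where 8314 of 948929 CpGs were. Without D11, 1 of 139 was called, the Meg3 CpG 776 bp downstream named above, where 5980 of 952564 CpGs were. These member counts are near those over all CpGs.

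Among the members with a level of 50% or more, where a loss could be seen, 9 of 15 were lower and 6 higher in decitabine treated P animals, with a median difference of -3.06 percentage points. Over all 272551 CpGs of the genome at that level 157018 were lower and 104259 higher, with a median of -1.21, so that the members' count of lower CpGs was near this background. In F3, 9 of 16 such members were higher, 6 lower and 1 equal, with a median of 2.18, against 158365 higher and 154480 lower of 324725 CpGs with a median of 0.0. Members at lower levels had a median difference of 0.0 in both generations, as did all CpGs.

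The whole windows were then compared as means over the CpGs covered in all animals of a generation. In a limma fit over all gene windows 0 of 4 loci were called in P, where 0% of 22111 windows were, and 0 of 4 in F3, where 0% of 22926 were. An unadjusted p under 0.05 was found for 0 loci in P (background 5.12%) and for H19 in F3 (background 4.44%). H19 had 33.74% in C14 and 47.02% in C8 against 34.58% in D10, 34.32% in D11 and 35.91% in D13, means of 40.38% ± 9.40 (SD, n = 2) and 34.94% ± 0.853 (SD, n = 3). The groups overlapped, and the difference of -5.44 percentage points was 1.2 without C8 and -12.09 without C14. In F3 it had 33.90% in F3C30 and 37.92% in F3C9 against 30.88% in F3D1, 32.28% in F3D31 and 31.63% in F3D7. The F3 groups did not overlap, with a difference of -4.31 percentage points, an unadjusted limma p of 0.0303 and an adjusted p of 0.996. The exact permutation test gave p = 0.1, the smallest that 2 against 3 animals allow, and 0.4 after adjustment over 4 loci. Without the gene start the F3 difference of H19 was 5.81 percentage points, of the opposite sign.

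Meg3 had 62.97% in C14 and 62.28% in C8 against 64.38% in D10, 68.12% in D11 and 65.48% in D13. The P groups did not overlap, with decitabine higher by 3.37 percentage points (exact permutation, two-sided, p = 0.2, adjusted 0.8, limma adjusted p 0.877), and without the gene start the difference was -0.37. In F3, with more CpGs, Meg3 ran from 45.18% in F3D31 to 54.03% in F3D1 and the difference was 1.03. Zdbf2 ran from 2.90% to 3.81% in P and from 2.61% to 3.37% in F3, and Rasgrf1 from 5.92% to 9.60% and from 9.52% to 13%. Their differences between agents were -0.02 and 0.13 percentage points in P and -0.25 and 0.15 in F3, with an exact permutation p of at least 0.5. These 2 window means rest mostly on the unmethylated CpGs of the gene starts. Between generations the 4 windows differed by -3.91 (H19), 1.18 (Meg3), 0.05 (Zdbf2) and 1.34 percentage points (Rasgrf1), F3 minus P, with adjusted exact permutation p-values of at least 0.467. The drug differences of P and F3 were not told apart at any of the 4 windows (adjusted p 0.92, exact permutation over 100 arrangements).

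Loci whose groups did not overlap were counted beside the share over all features. Of the 4 windows, 1 had all decitabine animals higher in P (background 5.27%) and 0 lower (16.1%), and in F3 0 higher (12%) and 1 lower (6.53%). Of the 10 member blocks, 2 were higher without overlap in P (both of Meg3, background 5.9%) and 1 lower (H19 3.2 kb upstream, background 13.1%), and in F3 0 were higher (10.9%) and 1 lower (the H19 start, 8.4%). limma called 0 of 10 member blocks in P, where 0% of 100531 blocks were called, and 0 of 10 in F3, where 0% of 113884 were. An unadjusted p under 0.05 was found for 0 of 10 in P against 5.15% and for 1 of 10 in F3 against 5.03%.

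Gene starts listed as methylated in other cells were used to look at the makeup of the samples. Of 14 gene starts listed as maternally methylated (unmethylated in sperm, methylated on 1 copy in somatic cells), 12 were covered in all animals. Whether each start used lies in the region methylated on 1 copy was not examined. Peg10 and Sgce share their CpGs, which leaves 11 distinct windows. The windows held 155 CpGs and were weighted alike, whatever their number of CpGs. Their mean was 7.18% in C14, 18.23% in C8, 12.72% in D10, 14.71% in D11 and 10.78% in D13, and 7.60% to 10.27% in the F3 animals. Only Inpp5f was under 5% in every animal, and the highest value was 55.56% for Slc38a4 in C8, on 3 CpGs. C8 was not high at every start, with 0% at Kcnq1ot1 and at Airn on 7 CpGs each. D10 had 9.38% and 25.12% at these 2 starts. Of 6 germ-cell gene starts, unmethylated in sperm and methylated in somatic cells, 5 were covered, with 132 CpGs. Their mean, again with each start weighted alike, was 13.57% in C14, 28.59% in C8 and 19.71% to 24.55% in decitabine treated animals, and 11.52% to 23.23% in F3. None of these 5 was under 5% in all animals, so that neither list was free of methylation. At Mael, however, C8 had 9.89%, the lowest of the P animals.

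C8, D10 and D11, the 3 animals with the highest maternal marker level, were also the 3 with the lowest levels of the Zdbf2 block 9.8 kb upstream and of the Rasgrf1 block 24.1 kb upstream. C8 and F3C9, with the highest germ-cell marker level of their generation, also had the highest level of their generation at the H19 start. The other upstream blocks followed the markers only in part. At the H19 block 3.2 kb upstream C8 had the highest level of all 10 animals (100%). F3C9, with the highest maternal and germ-cell marker levels of F3, had the lowest level there (84.6%). At the Meg3 block 15.3 kb upstream D10 (65.3%) was lowest in P and F3C9 (72.2%) in F3. The Meg3 block 14.3 kb upstream stayed between 94.6%, in F3C9, and 99.4%. The part of other cells in these values was not tested. Of the marker starts, 0 of 11 maternal and 0 of 5 germ-cell starts tested in P were called in limma (0% of 15068 gene starts) and 0 of 12 and 0 of 5 in F3 (0% of 15544). At an unadjusted p under 0.05, Mael, a gene of transposon silencing, was 13.22 percentage points higher in decitabine treated P animals (background 5.62%) and Nap1l5 7.54 percentage points higher in the decitabine line of F3 (background 4.3%).

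**Figure D5:**
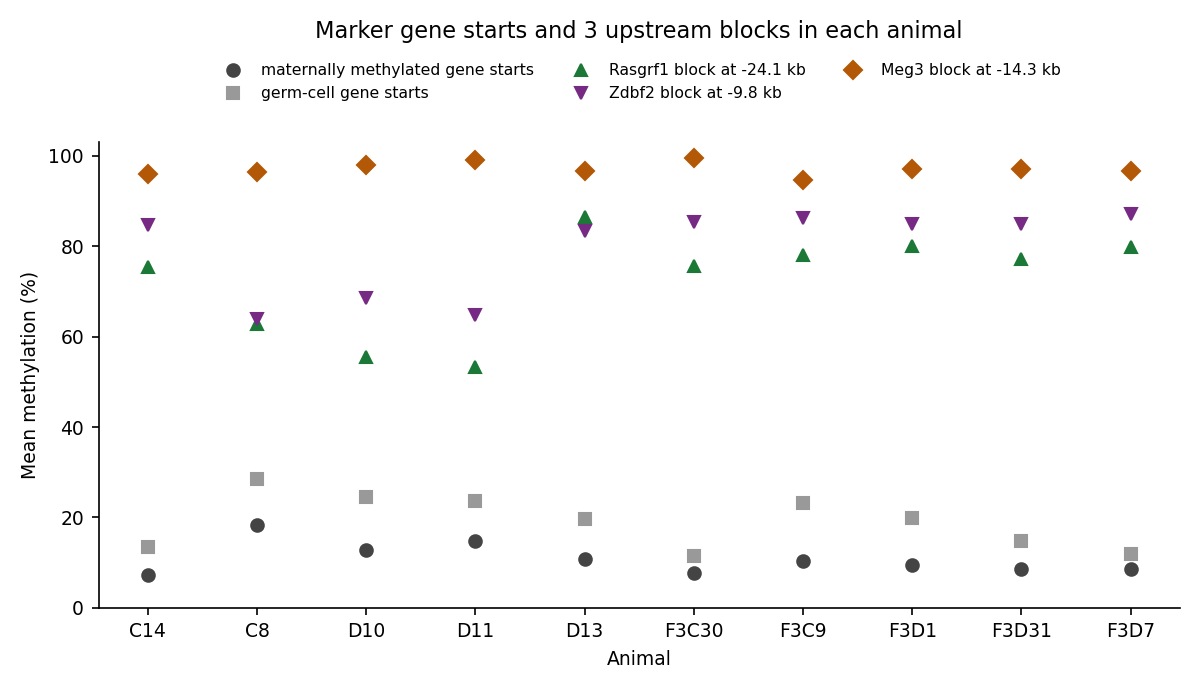
Mean methylation (%, vertical axis) in each of the 10 animals (horizontal axis) of the maternally methylated gene starts, the germ-cell gene starts and 3 upstream blocks of Meg3, Zdbf2 and Rasgrf1. The Zdbf2 and Rasgrf1 blocks are lowest in C8, D10 and D11, which have the highest maternal marker means (12.72% to 18.23%), while the Meg3 block stays above 94% in all.

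The neighbouring genes of the 4 domains were described by the CpGs within 1 kb of their starts. Of 23 genes, 15 had CpGs covered in all 10 animals, and neither Igf2 nor Rtl1, nor the Zdbf2 neighbour Gpr1, was among them. Dlk1, the ligand-like gene expressed from the paternal copy, had 0.36% to 2.28%, and Dio3, a deiodinase of the same domain, 0.27% to 1.19%. In the H19 domain the starts of Tnnt3, Lsp1 and Nctc1 were methylated at 77.22% to 100%, on 2, 1 and 4 CpGs, whereas Mrpl23 had at most 4.65%. The starts of Eef1b2 and Ndufs1 in the Zdbf2 domain share their CpGs and had 0.33% to 1.13%. Of the 12 neighbours tested in each generation 0 were called, and Wdr25 in P (-0.65 percentage points) and Ctsh in F3 (0.97) had an unadjusted p under 0.05. The covered starts of Adam23 in the Zdbf2 domain and of Morf4l1 and Tmed3 in the Rasgrf1 domain had at most 1.14% in every animal.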

How the data were processed

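Per the submitters' processing notes, the authors used CASAVA 1.8.2, Trim Galore 0.3.3, cutadapt 1.1 and Bismark 0.10.1, with mm10. They deposited the methylated and unmethylated read count of each CpG cytosine per animal, strands apart, not normalised, filtered or pooled. Intervals (95%, Wilson) and floors (3 counts) cover counting error only, since PCR copies cannot be told apart.

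Strands were summed, and CpGs with 10 or more reads in the 5 animals of a generation were compared by a logistic model (likelihood ratio, Benjamini-Hochberg; 25 percentage points and q-value 0.01, as in the study's methylKit settings), which has no term for variation between animals. Means of gene windows (at least 5 CpGs, GENCODE for GRCm38) and CpG blocks (at least 2, an alternative chosen after seeing the data) were tested with limma on log2((mean percent + 1)/(101 - mean percent)) at an adjusted p of 0.05. Single loci and blocks were compared by two-sided exact permutation tests, in which related F3 animals count as separate, and between generations also by founder family (exact sign flips, lineage as the study gives it). The members and lists were chosen with earlier results of these data known. Named CpGs were, per locus, the 3 with the largest pooled P difference, the lowest, those of the H19 amplicon and any called. Those at 3243, 832, 625, 48 and 22 bp upstream of H19, 42 bp downstream of Zdbf2 and 863 bp upstream of Rasgrf1 were chosen after their values were seen. Alternatives were coverage minimums of 5 and 20, a minimum on each strand, an upper coverage limit, other offsets, windows and tests, and leaving out each animal. Scripts were tested on simulated data (Python 3.11.15, numpy 2.4.6, pandas 2.3.3, scipy 1.17.1, R 4.3.3, limma 3.58.1). Sequences came from GRCm38, the sequence of mm10.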

Additional observations from a re-analysis of the deposited data

How the results depend on the processing

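No limma call was made for the 4 windows under any alternative run, and no member CpG was called under other coverage minimums, strand-wise filtering, an upper coverage limit, overdispersion or limma per CpG. Over all CpGs, the P calls (6584) became 0 with overdispersion, 0 with limma, 19898 at 10 percentage points and 3490 at 20 reads, and the F3 calls (2494) became 0, 0, 10042 and 1432. At 10 percentage points 1 member was called in P. Leaving out 1 animal gave 2770 to 41596 calls and 0 to 3 members in P, 730 to 14088 and 0 to 3 in F3, and 0 to 1 gene windows in F3. The replicate numbers do not mark pairs of vehicle and decitabine animals, so only the comparison between generations could be paired. With founder as block for 4 families (the pairing chosen after seeing the data, D13 without descendant left out), the window differences, F3 minus P, were -3.66 (H19), 1.26 (Meg3), 0.24 (Zdbf2) and 1.91 (Rasgrf1), with an exact permutation p of at least 0.25, so that the block changed no direction or call.

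Several window differences were small and changed sign, and the cause was not tested. With reads pooled over the window, Zdbf2 in P was 0.43, Rasgrf1 in P -1.11, Rasgrf1 between generations -0.86, and the difference of drug effects 3.39 for H19 and -2.08 for Rasgrf1. Without the gene start, Meg3 in P was -0.37 and H19 in F3 5.81, and the difference of drug effects was -0.85 for Meg3 and -1.98 for Zdbf2. With only the gene start, the values were 0.03 for Zdbf2 and -0.01 for Rasgrf1 in P, -0.06 for Rasgrf1 in F3, -0.25 for Zdbf2 between generations and 3.31 for the drug effects at H19. At 5 reads, Zdbf2 in P was 0.03, Rasgrf1 in F3 -0.84, Meg3 between generations -0.37 and the drug effects at H19 0.38. At 20 reads Zdbf2 between generations was -0.23. Without 1 animal, the P differences ran from -12.09 to 1.2 (H19; -12.09 without C14, 1.2 without C8), 2.3 to 3.9 (Meg3), -0.46 to 0.36 (Zdbf2) and -1.03 to 0.96 (Rasgrf1), and in F3 from -6.32 to -2.3, -0.89 to 3.54, -0.67 to -0.01 and -1.6 to 1.89. Between generations they ran from -7.23 to -0.58, 0.05 to 2.2, -0.17 to 0.23 and 0.73 to 1.96, and for the drug effects from -7.78 to 5.51, 1.08 to 4.34, -0.17 to 0.61 and -1.04 to 1.41. Among blocks covered in all animals, the methylated upstream ones rest on 2 to 5 CpGs each, and the lowest read number of a CpG was 11, at Zdbf2.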

Other observations

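The CpG 3243 bp upstream of H19, which not all animals covered, had 45.5% in C8 on 11 reads (95% Wilson interval 21.3% to 72.0%), against 95.0% in C14, 93.3% in D10 and 95.5% in D11. In F3 it had 69.2% in F3C30 and 75% in F3D31 on 13 and 12 reads, 100% in F3C9 and 96.6% in F3D1. The 2 CpGs 625 and 832 bp upstream of H19, between the methylated upstream block and the weakly methylated gene start, were covered only in some of the animals. That at 625 bp had 81.8% in D10, 53.3% in D11, 95.8% in D13, 90.9% in F3C30, 100% in F3C9 and 69.2% in F3D1. The 4 Rasgrf1 CpGs near 31.8 kb upstream were each read in 2 animals, on 10 to 16 reads, with 76.9% to 100%.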
